A study of Mus musculus with 21 samples.

Results

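The 9 genes described here are Pck1, G6pc, Fbp1, Tat, Ppargc1a, Cpt1a, Bdh1, Pdk4 and Acadm, chosen by symbol from the 24391 genes counted in each of 21 libraries. No measured value was in the rule, but earlier results of these data were known when it was set. These genes make or regulate the enzymes with which a newborn liver takes over the supply of fuel. The libraries came from the brain, liver and skin of 7 C57BL/6 mice at P0, the day of birth, 1 library for each mouse and tissue. The 2 KI mice, labelled Jak1 KI +/-, are heterozygous for an edited Jak1 allele in which histidine is replaced by aspartic acid and silent changes were made in the next codons, and the 5 WT mice lack it. Jak1 encodes a tyrosine kinase that passes cytokine signals to STAT proteins. The KI mice descend from a mosaic male, so the edited allele came from 1 founder. The age is given as P0 only. Time since birth, feeding, litter and sex are not in the labels, so none of these can be told apart from the mouse itself, and Y-linked counts marked KI 2 and WT 3 as male.

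At birth the supply of glucose through the placenta ends. Glucagon and glucocorticoids rise while insulin falls, and the liver switches on gluconeogenesis, the making of glucose from lactate, amino acids and glycerol. Once milk is taken, fatty acids are oxidised in liver mitochondria and part of their carbon leaves as ketone bodies for the brain and muscle. Pck1, G6pc and Tat are textbook genes of this switch, induced through cyclic AMP and glucocorticoids.

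Each library held 26549326 to 38388133 counts on genes, and levels are given below as CPM, read counts scaled to a common library size with TMM factors over all 21 libraries. The livers carried hepatocyte RNA, with a summed level of 10 hepatocyte markers of 278500 to 297100 CPM in KI and 273400 to 342400 CPM in WT. Some libraries stood apart. The liver of WT 4 had 2.12% of 10084 genes more than 1 log2 unit away from the median of the other livers, against 0.268% to 1.81% in the other 6. In the brain, leaving out WT 5 moved the number of genes called between KI and WT from 0 to 672 higher and 1026 lower. In the skin, WT 4 held the least adipocyte RNA and WT 3 the most brown adipocyte RNA. The authors report a lower RNA integrity for the skin samples than for the liver samples.

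The 250 bases before the annotated start are shown for the trio whose liver levels moved together, Pck1, G6pc and Tat, and for Ppargc1a, which stood highest in WT 4 relative to the other livers. They are RefSeq promoter sequences on GRCm38.p6, read in the direction of the gene, and capitals mark matches to the searched motifs, which were looked for on both strands.
Pck1, chr2:173152823-173153072, plus strand: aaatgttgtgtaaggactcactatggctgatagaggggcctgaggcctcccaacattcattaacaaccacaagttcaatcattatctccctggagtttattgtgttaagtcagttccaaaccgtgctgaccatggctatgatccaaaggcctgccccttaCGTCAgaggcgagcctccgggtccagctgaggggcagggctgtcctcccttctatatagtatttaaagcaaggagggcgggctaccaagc
G6pc, chr11:101367466-101367715, plus strand: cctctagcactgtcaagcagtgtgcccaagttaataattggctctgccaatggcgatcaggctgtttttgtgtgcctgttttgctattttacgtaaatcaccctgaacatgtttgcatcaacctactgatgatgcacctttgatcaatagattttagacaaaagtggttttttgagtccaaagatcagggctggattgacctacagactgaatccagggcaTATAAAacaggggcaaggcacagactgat
Tat, chr8:109990186-109990435, plus strand: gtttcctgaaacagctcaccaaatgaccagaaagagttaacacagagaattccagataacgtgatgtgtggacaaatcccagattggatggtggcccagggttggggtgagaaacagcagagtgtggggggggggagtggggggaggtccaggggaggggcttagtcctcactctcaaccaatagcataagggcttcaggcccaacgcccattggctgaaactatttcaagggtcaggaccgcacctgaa
Ppargc1a, chr5:51567726-51567975, minus strand: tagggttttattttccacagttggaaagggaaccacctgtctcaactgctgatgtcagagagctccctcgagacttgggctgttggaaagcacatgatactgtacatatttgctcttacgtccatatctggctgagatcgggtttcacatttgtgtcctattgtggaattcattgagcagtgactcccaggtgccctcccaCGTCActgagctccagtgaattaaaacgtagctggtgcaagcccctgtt
The Pck1 capitals are CGTCA, the core of the site bound by cyclic AMP response element binding protein, and begin 90 bases before the start. The Ppargc1a match begins 49 bases before the start, and Acadm, not printed, held the same letters 21 bases before its start. These letters occurred in 17.8% of 32851 promoter windows of the same length, so 3 of the 10 windows of these genes (Bdh1 has 2) describe the sequence only. The G6pc capitals are TATAAA, 29 bases before the start, found in 12.4% of all windows. None of the 10 windows held GTAAACA (forkhead, 3.17% of all windows), TGTTCT (core of the glucocorticoid receptor site, 16.1%), TTGCNNAA (C/EBP, 9.56%), TTCNNNGAA (STAT, 7.02%) or the longer DR1 motif of PPAR and HNF4 (0.0335%).

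Pck1 (chr2:172978549-172984774 in NCBIM37, the mm9 build) encodes the cytosolic phosphoenolpyruvate carboxykinase that commits oxaloacetate to glucose. Its liver level was 1588 CPM in KI 1 and 2089 CPM in KI 2. In the WT livers it was 1219 CPM in WT 1, 1891 in WT 2, 256 in WT 3, 4696 in WT 4 and 304 in WT 5. The WT mice alone thus spanned 18.4-fold, and both KI livers lay inside that span. WT 3 and WT 5 were low and WT 4 high.

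G6pc (chr11:101228875-101239217) encodes the catalytic subunit of glucose-6-phosphatase, which releases free glucose into the blood. The KI livers held 724 and 947 CPM. WT 1 to WT 5 held 984, 1440, 283, 3456 and 330 CPM, the same order of WT mice as for Pck1, with a 12.2-fold span. Fbp1 (chr13:62966113-62989642), the fructose-1,6-bisphosphatase between these steps, did not share the span. It stood at 1573 and 1290 CPM in the KI livers and at 1285, 1620, 1492, 1688 and 1674 CPM in WT 1 to WT 5, a 1.31-fold range. WT 3, lowest of all 7 livers in Pck1 and G6pc, had an ordinary Fbp1 level.

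Tat (chr8:112514337-112523703), the tyrosine aminotransferase that feeds amino acid carbon into this route, followed Pck1. Its KI livers held 282 and 421 CPM, and WT 1 to WT 5 held 243, 306, 151, 1029 and 113 CPM. The highest WT liver was 9.09 times the lowest, and again WT 4 was high and WT 3 and WT 5 low.

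**Figure D1:**
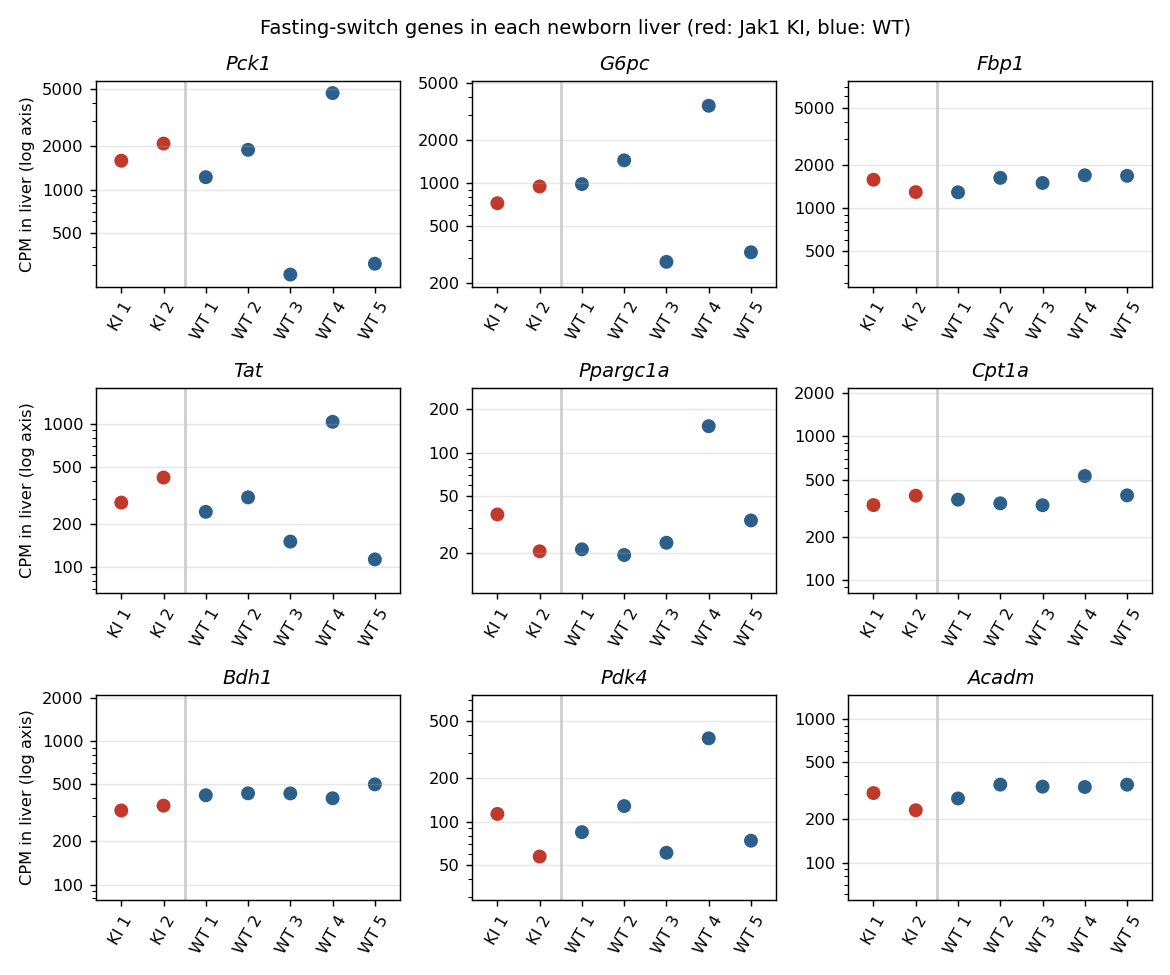
Level of each gene in each of the 7 livers, in CPM on log axes that span the same ratio in every panel, with KI in red and WT in blue and 1 point per mouse. Pck1, G6pc and Tat are low in WT 3 and WT 5 and high in WT 4, Ppargc1a and Pdk4 stand out in WT 4, and Fbp1, Bdh1 and Acadm lie almost level.

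Ppargc1a (chr5:51845488-51958964) encodes PGC-1α, a coactivator of gluconeogenic and oxidative genes. It stood at 37.1 and 20.6 CPM in the KI livers. WT 1, 2, 3 and 5 held 21.2, 19.4, 23.6 and 33.7 CPM, and WT 4 held 152.9 CPM, 6.82 times the median of the other 6 livers. Pdk4 (chr6:5433351-5446309), the kinase that shuts pyruvate dehydrogenase and so spares glucose carbon, had 113 and 57.2 CPM in KI and 84.5, 128, 60.7, 381 and 73.7 CPM in WT 1 to WT 5. WT 4 was the high liver here as well, at 4.82 times the median of the others. Unlike Pck1, neither gene set WT 3 and WT 5 apart by more than 1 log2 unit.

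The genes of fat oxidation and ketone bodies varied less. Cpt1a (chr19:3323301-3385732), the outer membrane carnitine palmitoyltransferase that admits long-chain fatty acids to mitochondria, had 332 and 387 CPM in KI and 363, 342, 332, 530 and 389 CPM in WT 1 to WT 5. WT 4 was 1.5 times the median of the other 6. Acadm (chr3:153585321-153607596), the medium-chain acyl-CoA dehydrogenase, had 305 and 231 CPM in KI and 279, 349, 338, 336 and 349 CPM in WT 1 to WT 5. Bdh1 (chr16:31422366-31458987), the mitochondrial 3-hydroxybutyrate dehydrogenase that makes the main ketone body, had 328 and 355 CPM in KI and 419, 432, 432, 399 and 499 CPM in WT 1 to WT 5. Bdh1 was the only one of the 9 genes in which both KI livers lay outside the WT range. Of all 14966 genes, 12.1% had both KI livers above every WT liver and 12.7% had both below.

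The spread between WT mice was set beside that of 10084 genes with a mean of at least 10 CPM in the livers. The standard deviation of log2 CPM over the 5 WT livers was 1.78 for Pck1, 1.51 for G6pc, 1.23 for Tat, 1.23 for Ppargc1a and 1.06 for Pdk4, against a median of 0.153 over all these genes. Their ranks from the most variable gene were 10, 19, 33, 32 and 46. Cpt1a (0.27, rank 1669), Fbp1 (0.16, rank 4547), Acadm (0.13, rank 5979) and Bdh1 (0.12, rank 6749) were in the body of the distribution or near it. Without WT 4 the values were 1.44 for Pck1, 1.16 for G6pc, 0.65 for Tat, 0.35 for Ppargc1a and 0.46 for Pdk4, with a median of 0.129 over all genes. The spread of Pck1 and G6pc was thus present among the other 4 WT livers, and that of Tat, Ppargc1a and Pdk4 was smaller without WT 4 but still above that of most genes (percentiles 98.4, 93.7 and 96.4 without WT 4). That of Cpt1a was 0.10 without WT 4, at percentile 33.6.

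Each liver was then compared with the median of the other 6. In WT 4, 5 of the 9 genes were more than 1 log2 unit above it: Ppargc1a by 2.77, Pdk4 by 2.27, G6pc by 2.06, Tat by 1.98 and Pck1 by 1.76. Their ranks among the 10084 genes by departure in that liver were 4, 8, 12, 17 and 26. In WT 3, Pck1 departed by -2.76 and G6pc by -1.77. In WT 5, Pck1, G6pc and Tat departed by -2.51, -1.55 and -1.37. No member departed by more than 1 in KI 1, KI 2, WT 1 or WT 2.

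**Figure D2:**
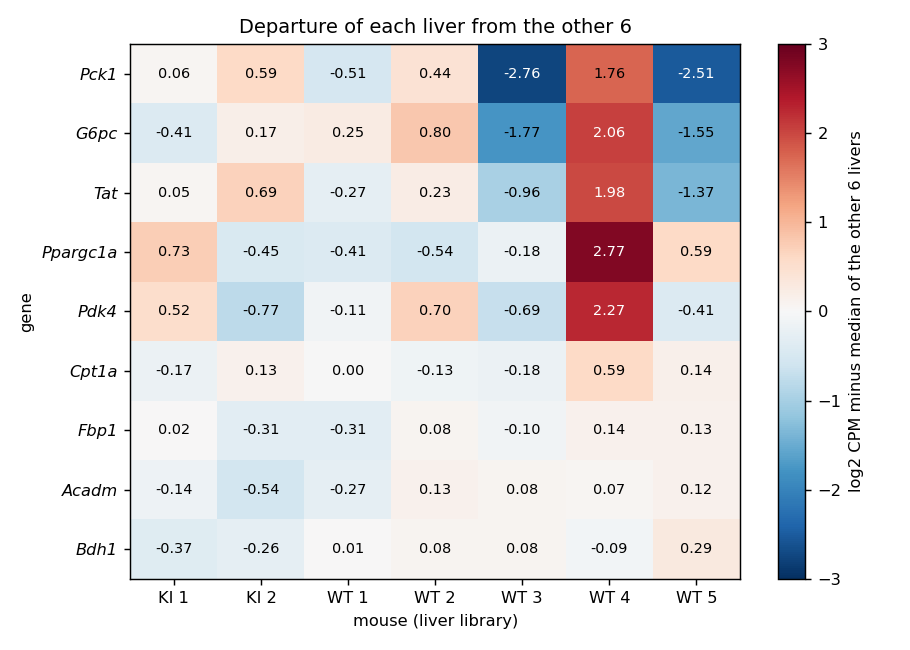
Departure of each liver (columns) from the median of the other 6 for each gene (rows), as a difference in log2 CPM, red above and blue below. The upper 5 rows are red in WT 4, the Pck1, G6pc and Tat rows are blue in WT 3 and WT 5, and the lower rows are close to 0.

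Pck1 and G6pc moved together over the 7 livers (Pearson r = 0.95, Spearman rho = 0.821), as did Pck1 and Tat (r = 0.932, rho = 0.964). Without the pair of livers farthest from the median Pck1 level, r was 0.882 and 0.985, and without WT 4 it was 0.941 and 0.945. Ppargc1a and Pdk4 had r = 0.856 (rho = 0.357) over 7 livers but 0.142 without WT 4, so this relation rests on that liver. The same holds for Ppargc1a and Cpt1a, with r = 0.851 (rho = 0.286) and -0.06 without WT 4. These are descriptions over 7 mice that include both genotypes, and 36 pairs were computed. Among 10075 other genes, the one most like Pck1 was Plk3, a stress-responsive polo-like kinase gene, with r = 0.9947. Its levels were 48.5 and 76.5 CPM in KI and 49.4, 77.6, 9.68, 184 and 12.9 CPM in WT 1 to WT 5. The closest gene to Acadm was Hpd, the next enzyme after Tat in tyrosine breakdown (r = 0.984). For the other members it was Usp19 (G6pc), Rdh13 (Fbp1), Dctn4 (Tat), Snhg17 (Ppargc1a), Rab11fip2 (Cpt1a), Slc39a9 (Bdh1) and Dnmbp (Pdk4), with r from 0.9791 to 0.9939. Each of these is the highest of 10075 correlations over 7 livers, where high values also arise between unrelated genes. Whether any of these genes is regulated with its member was not tested.

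The wider pathway was followed in 10 lists that hold 139 other genes, of which 138 passed the count filter in liver. In the gluconeogenesis list, Gapdh, Eno1, Pgk1 and Pgam1 held only 0.254 to 17.5 CPM in the livers. Their values and their part in the list median are therefore uncertain, and loss of reads to near-identical copies was not tested. The lists were chosen with earlier results of these data known. In WT 4, 12 of the 138 were more than 1 log2 unit above the other livers' median and 2 below. Of the 126 with a mean of at least 10 CPM, as for the 10084 genes, 10.3% were beyond 1 log2 unit in WT 4, against 2.12% of all. Other livers also had a larger share of list genes than of all genes beyond this limit, with 6.35% against 0.674% in WT 3, 6.35% against 0.962% in KI 1, 5.56% against 1.81% in WT 5 and 3.17% against 1.29% in KI 2. The 12 higher genes of WT 4 were spread over the lists, 3 of 14 in amino acid breakdown, 3 of 20 among hormone receptors and regulators, 2 of 8 among glucocorticoid-induced genes and 1 of 15 in gluconeogenesis, while none of the 8 of ketone bodies and of the 21 of mitochondrial oxidation was among them. The median departure of a list in WT 4 lay between -0.08 and 0.37. The genes named in this paragraph were picked after their values were seen. Got1, the aspartate aminotransferase that supplies Pck1 with oxaloacetate, held 892 CPM in WT 4 and 90.2 to 283 CPM in the other livers. Sds, the serine dehydratase of amino acid breakdown, held 96.8 CPM against 9.59 to 42.4. Sgk1, a kinase gene induced by glucocorticoids, held 303 CPM in WT 4, 34.2 in WT 3 and 23.4 in WT 5, with 64.1 to 132 in the others, while Mt1 of the same list was at 500.5 CPM in WT 4 against 357 to 1406 in the others. Ppp1r3g, a glycogen-targeting phosphatase subunit, was also high in WT 4 and low in WT 3 and WT 5, with 213 CPM in WT 4, 11.2 in WT 3, 15.3 in WT 5 and 66.1 to 96.2 in the others. On the low side in WT 4 were Ppp1r3c, another such subunit, at 18.5 CPM against 56.4 to 265, and Pnpla3, a lipase-like gene of the fed state, at 3.39 CPM against 8.61 to 29.9.

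Comparison of KI with WT livers asked whether the edited kinase went with another state of this switch. With edgeR's quasi-likelihood test and Benjamini-Hochberg adjustment, none of the 9 genes was called at an adjusted p under 0.1, where 5.57% of 14966 genes were called (3.89% higher and 1.68% lower in KI). At an unadjusted p under 0.05 there was 1, against 17.9% of all genes, and DESeq2 called 1, against 10.2% of all genes, in both cases Bdh1. For Ppargc1a DESeq2 gave no adjusted p. The median log2 fold change of the members was -0.28, against -0.02 over all genes, and 8 of the 9 values were below 0. The values of the variable genes had wide errors. Pck1 had a log2 fold change of 0.16 (SE 0.92, adjusted p = 0.949), G6pc -0.61 (SE 0.837, adjusted p = 0.753) and Tat -0.04 (SE 0.726, adjusted p = 0.983). Ppargc1a had -0.77 (SE 0.815, adjusted p = 0.667) and Pdk4 -0.75 (SE 0.682, adjusted p = 0.612). Without WT 4 the values were 1.02 for Pck1, 0.16 for G6pc, 0.80 for Tat, 0.25 for Ppargc1a and -0.01 for Pdk4. The sign therefore turned for G6pc, Tat and Ppargc1a, and for Cpt1a from -0.10 to 0.02. Fbp1 had -0.10 (SE 0.129, adjusted p = 0.738).

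Bdh1 and Acadm had small errors. Bdh1, at 328 and 355 CPM against 399 to 499, had a log2 fold change of -0.34 (SE 0.109, adjusted p = 0.149 from edgeR). Both KI livers below all WT livers was seen for 12.7% of all genes. DESeq2 gave an adjusted p of 0.0481 and edgeR without WT 4 one of 0.084. Over all alternatives the adjusted p ran from 0.0481 to 0.871. In simulated counts for this liver comparison, with 200 changed genes, DESeq2 made 65 false calls and edgeR 17. Acadm had -0.28 (SE 0.132, adjusted p = 0.3), and its groups overlapped.

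**Figure D3:**
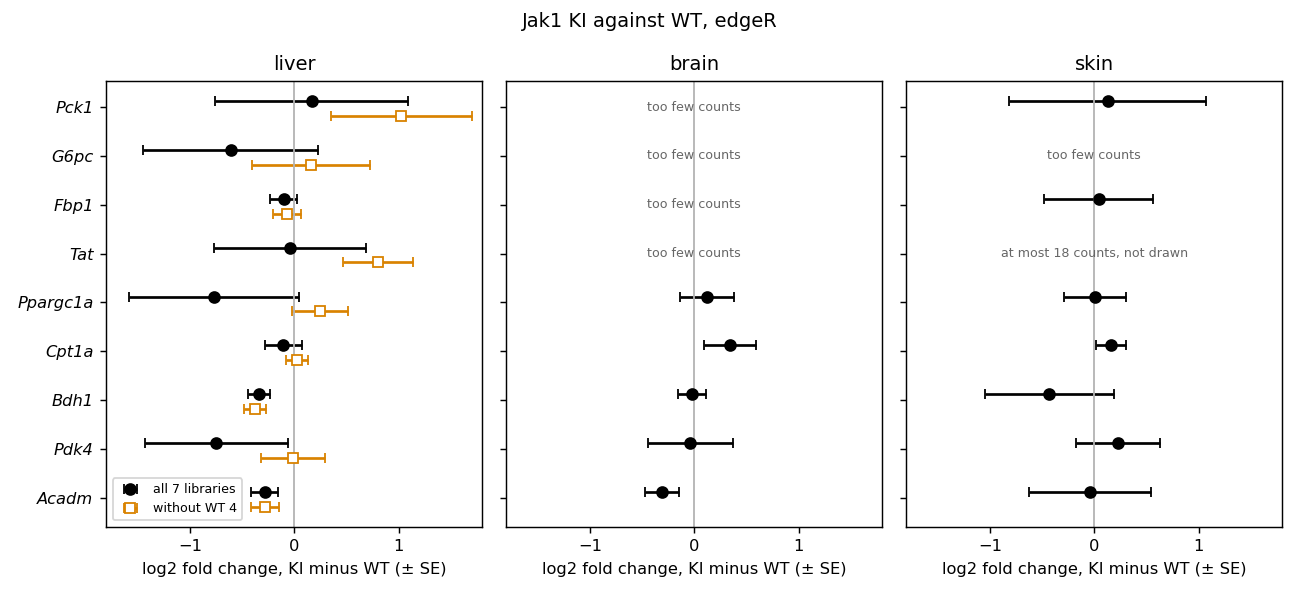
Log2 fold change of KI over WT with its standard error from edgeR, for each gene in liver, brain and skin, with open squares for liver without WT 4. The liver bars of Bdh1, Acadm and Fbp1 are short, and Pck1, G6pc, Tat, Ppargc1a and Pdk4 shift to the right without WT 4. Genes with too few counts carry a note in place of a point.

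Of the 138 listed pathway genes, edgeR called 15 lower in KI livers and 0 higher, 10.9% against the 5.57% of all genes, and DESeq2 called 0 higher and 30 lower, where it called 5.78% of all genes higher and 4.37% lower. Before adjustment, with p under 0.05, 4 were higher, where 9.49% of all genes were, and 39 lower, where 8.41% of all genes were. Since the lists were chosen with earlier results known, these shares are descriptions. The list of lipid and glucose storage genes of the fed state gave 7 of 15, with a median log2 fold change of -0.60. Thrsp, a lipogenic gene driven by thyroid hormone and carbohydrate, had 1.29 and 1.74 CPM in KI and 12.5 to 34.6 CPM in WT (log2 fold change -3.72, SE 0.453, adjusted p = 0.00566 from edgeR). Acacb, which makes the malonyl-CoA that inhibits Cpt1a protein, fell by 0.76 and Pklr, the liver pyruvate kinase, fell by 0.73 (edgeR, adjusted p = 0.0337 and 0.0299). In all 3 of these both KI livers lay below every WT liver, WT 4 included, as for 12.7% of all genes. The 3 were named because edgeR called them lower, so this lack of overlap adds no separate support.

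The list of PPARα, the fatty acid sensor, and its targets outside mitochondrial oxidation had 4 of 15 genes called lower and a median of -0.35. Cyp4a14, a microsomal fatty acid hydroxylase, stood at 206 and 153 CPM in KI and 363 to 571 in WT (-1.32, SE 0.182, adjusted p = 0.0093 from edgeR). Ehhadh of peroxisomal oxidation fell by 0.64, Acot1 by 0.95 and Acaa1b by 0.50 on the log2 scale (edgeR, adjusted p = 0.0162, 0.0947 and 0.0604). In other lists Tdo2, a tryptophan dioxygenase whose levels here were only 0.79 to 6.59 CPM, fell by 1.92, Pdp2 by 0.69, Gbe1, the glycogen branching enzyme, by 0.64 and Foxo3 by 0.63 (edgeR, adjusted p = 0.0384, 0.073, 0.0693 and 0.029). Each of these lists had 1 gene called. No gene was called among the other genes of gluconeogenesis (15 tested, median -0.19), of ketone bodies (8, median -0.23), of mitochondrial fatty acid oxidation (21, median -0.20) and among glucocorticoid-induced genes (8, median 0.17). In the list of mitochondrial oxidation the most abundant gene was Acsl1, an acyl-CoA synthetase gene, with -0.53 (adjusted p = 0.109 from edgeR). In the glucocorticoid list it was Mt1, a metallothionein gene, with 0.93 (adjusted p = 0.18 from edgeR), at 1406 CPM in KI 1 but 503 in KI 2. The 15 lower calls numbered 1 without KI 2, 4 without KI 1, 9 without WT 2 or without WT 3 and 25 without WT 4. With the erythroid markers as a covariate, added to the model, there were 7.

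Some marker sums of other cell types differed between KI and WT livers. The summed erythroid markers, 8 of 10 of which were found in the files, were 3478 and 3625 CPM in KI and 4188 to 5678 CPM in WT, with 2 of 6 tested called lower and none of the 6 above 0. The 8 immune and granulocyte markers summed to 7194 and 8904 CPM in KI and 4690 to 5921 in WT, with 6 called higher. The 6 adipocyte markers summed to 278 and 282 CPM in KI and 94.9 to 128 in WT, with 1 of 2 tested called higher (Fabp4) and 4 of 6 at 0 in both KI livers. The other tested marker was not above 0, so a change in adipocytes is not shown. None of the 10 hepatocyte markers was called by edgeR. The part of these cell types in the values above was not tested. The erythroid covariate could not separate it well from KI, since both KI livers lay below every WT liver in the erythroid sum. In whole liver RNA, fewer hepatocytes and less RNA per hepatocyte cannot be told apart. Among the WT livers, WT 4 lay inside the WT range of the hepatocyte sum (306000 CPM) and of the erythroid sum (4746 CPM) and was lowest in the immune sum (4690 CPM).

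Across tissues of WT mice the genes other than Ppargc1a were led by liver. The median of Ppargc1a was 23.6 CPM in WT liver and 38.7 CPM in WT brain. Per kilobase of exon, the WT liver means were 912 CPM for Fbp1, 538 for G6pc, 488 for Pck1, 153 for Tat, 115 for Bdh1, 113 for Acadm, 90.9 for Cpt1a, 41.5 for Pdk4 and 7.55 for Ppargc1a. Over the 5 livers the range of each gene in that order overlapped with that of the next. Within single livers, G6pc was above Pck1, Pck1 above Tat, Cpt1a above Pdk4 and Pdk4 above Ppargc1a in 5 of 5, Fbp1 was above G6pc and Acadm above Cpt1a in 4 of 5, and Tat was above Bdh1 and Bdh1 above Acadm in 2 of 5. The SD was 98.7 for Fbp1, 538 for G6pc, 531 for Pck1, 9.88 for Bdh1 and 9.90 for Acadm. In the WT brain Bdh1 led with 37.7 CPM per kilobase, before Acadm at 13.5, Cpt1a at 6.96, Ppargc1a at 5.58 and Pdk4 at 1.14. In the WT skin Acadm stood at 48.5, Pck1 at 32.0, Cpt1a at 10.2 and Pdk4 at 10.01.

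In edgeR, 8 of the 9 genes were called higher in WT liver than in WT brain, where 40.2% of 17071 genes were higher and 43.3% lower, and all 9 higher than in WT skin, where 32.5% were higher and 39.8% lower. Between liver and skin, tissue and RNA integrity cannot be told apart. Pck1, G6pc, Fbp1 and Tat had between 0 and 8 counts in any brain library, at the level of a few reads. Tat had at most 18 and G6pc at most 5 counts in any skin library. Bdh1 was 3.04 times higher in liver than in brain (log2 difference 1.60, SE 0.226, adjusted p = 6.59e-06), the smallest called difference there. Ppargc1a, at 37.1 ± 9.11 CPM in brain and 50.2 ± 57.7 CPM in liver (SD, n = 5), was not called (0.43, SE 0.484, adjusted p = 0.417 from edgeR). Without WT 4 its difference was -0.59, and the brain was called higher (adjusted p = 0.0581 from edgeR). Against skin the smallest difference was that of Acadm, 2.33-fold (adjusted p = 0.00293 from edgeR), and its groups overlapped, as did those of Pck1. Between skin and brain, where edgeR called 79.4% of all genes, Bdh1 and Ppargc1a were lower in skin, with log2 differences of -2.69 and -2.53, and Pdk4, Acadm and Cpt1a were higher, with 3.13, 1.84 and 0.55.

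**Figure D4:**
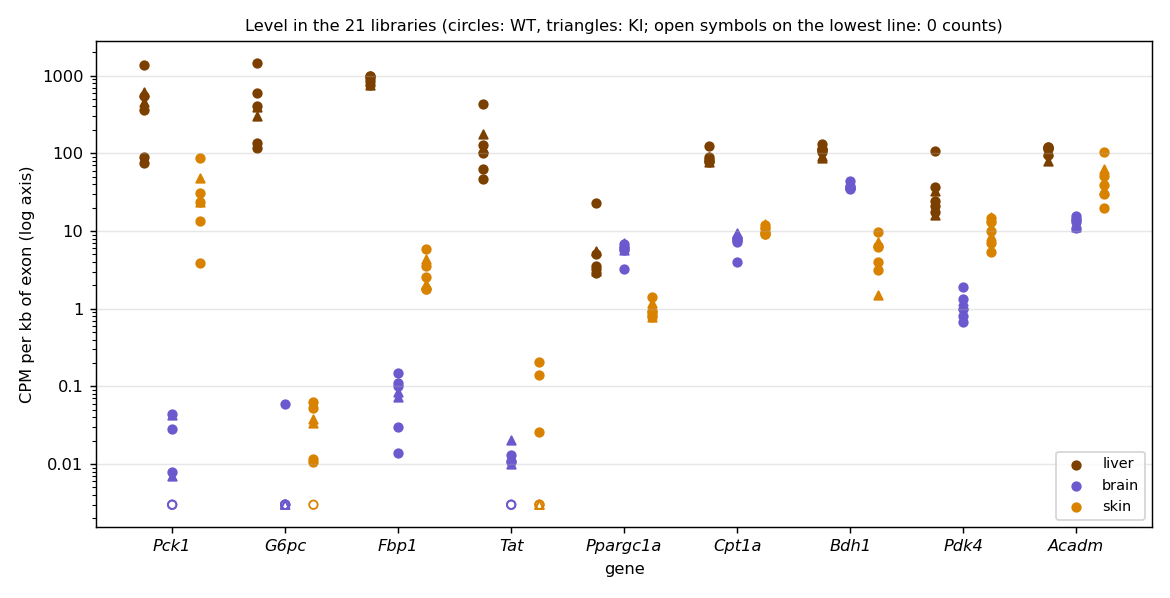
CPM per kilobase of exon (log axis) of each gene in the 21 libraries, circles for WT and triangles for KI, colored by tissue, with open symbols on the lowest line for 0 counts. Liver points lie above all others except for Ppargc1a, whose brain points fall among them, and for Acadm and Pck1, whose highest skin points reach the lowest liver points.

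In the brain 5 of the 9 genes had enough counts for the comparison of KI with WT, and edgeR called none of the 5 and 0% of 16322 genes. None of the 5 had an unadjusted p under 0.05, against 10.6% of all genes, and DESeq2 called none, against 4.28% of all genes. Without WT 5 edgeR also called none of the 5, where it called 672 genes higher and 1026 lower. Cpt1a held 39.4 and 40.8 CPM in KI and 31.4, 32.8, 32.7, 35.4 and 17.4 CPM in WT 1 to WT 5, so that both KI brains lay above all WT brains, as for 17.7% of all genes, with 11.2% below (log2 fold change 0.34, SE 0.247, adjusted p = 0.675 from edgeR). WT 5 was the low brain for Cpt1a and, at 21.6 CPM against 38.4 to 45.5 CPM, for Ppargc1a. Bdh1, which in brain serves the use of ketone bodies, was the most abundant member there, with 149 and 151 CPM in KI and 132 to 167 CPM in WT. Acadm held 34.8 and 33.0 CPM in KI and 31.9 to 46.0 CPM in WT (-0.31, SE 0.165, adjusted p = 0.561 from edgeR). Pdk4 was low in all brains, at 2.34 to 6.62 CPM, and WT 4 was the highest. Ppargc1a had 0.12 (SE 0.258), Bdh1 -0.02 (SE 0.13) and Pdk4 -0.04 (SE 0.404), with adjusted p of at least 0.895 from edgeR.

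In the skin 8 genes passed the filter and edgeR called none, where 0.0247% of 16163 genes were called. None had an unadjusted p under 0.05, against 4.57% of all genes, and DESeq2 called none, against 0.707% of all genes. No member had both KI skins above all WT skins, seen for 5.47% of all genes, or below, seen for 3.84%. Tat passed the filter on so few counts that its fold change is not given. Pck1 held 81.0 and 163 CPM in KI and 105, 82.1, 301, 13.4 and 46.4 CPM in WT 1 to WT 5 (log2 fold change 0.13, SE 0.943, adjusted p = 0.999). In skin WT 3 was thus the highest and WT 4 the lowest, the reverse of their order in liver. Acadm followed the same order, with 99.7 and 181 CPM in KI and 151, 114, 302, 57.2 and 87.4 CPM in WT (-0.04, SE 0.587, adjusted p = 0.999 from edgeR).

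Both genes are active in fat cells, where Pck1 makes glycerol for triglycerides. The summed level of 6 adipocyte markers was 5620 CPM in the skin of WT 3, 756 in WT 4 and 2098 to 4262 in the other WT skins, and 2332 and 6081 in KI. Over the 7 skins it went with Pck1 at r = 0.96 (rho = 0.964) and with Acadm at r = 0.915 (rho = 0.964), and at 0.903 and 0.937 without the pair of skins farthest from its median. Other marker sums went with these genes too. The 10 hepatocyte markers, at 319 to 2474 CPM in skin, had r = 0.852 (rho = 0.929) with Pck1 and 0.812 (rho = 0.929) with Acadm, and the brown adipocyte markers had r = 0.686 and 0.824 (rho = 0.857 for both). The 6 brown adipocyte markers summed to 469 CPM in WT 3 and 39.3 to 78.2 CPM in the other 6 skins. Ppargc1a was highest in WT 3 too, at 9.4 CPM against 5.15 to 7.88. Its r with this sum was 0.622 but its rho -0.214. Without the pair of skins farthest from the median of the sum, r was -0.759. Bdh1 had 27.6 and 5.71 CPM in KI and 12.1 to 37.0 in WT (-0.43, SE 0.616, adjusted p = 0.999 from edgeR). Keratinocyte RNA differed widely between skins too. The 6 keratinocyte markers summed to 11990 CPM in KI 1, 811 in KI 2, 14680 in WT 4 and 1320 in WT 5. Like this sum, Bdh1 was highest in WT 4 and lowest in KI 2. Fbp1 was also highest in WT 4 but not lowest in KI 2. Fbp1 ran the other way from Pck1, with 7.39 and 3.54 CPM in KI and 4.39, 3.03, 3.02, 9.94 and 6.00 CPM in WT 1 to WT 5, highest in WT 4 (r = -0.89 and rho = -0.79 with the adipocyte sum, and r = -0.80 without the pair of skins farthest from its median). Pdk4 held 30.4 and 53.2 CPM in KI and 18.6 to 51.2 CPM in WT, and Cpt1a 53.1 and 46.5 CPM in KI and 39.6 to 52.1 CPM in WT. The fold changes of Pdk4, Cpt1a, Fbp1 and Ppargc1a were 0.23, 0.16, 0.04 and 0.01, and the adjusted p from edgeR was 0.999 for all 4. Whether the amount of fat or epidermis in the sample set these values was not tested.

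**Figure D5:**
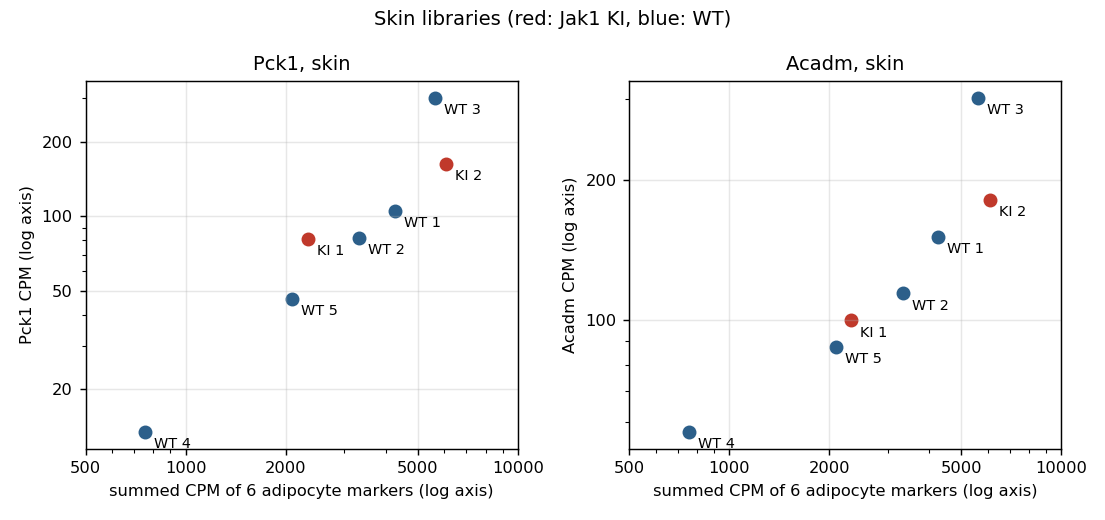
Pck1 (left) and Acadm (right) in the 7 skins against the summed CPM of 6 adipocyte markers, all axes logarithmic, with KI in red and WT in blue and 1 point per mouse. Both genes are lowest in WT 4, at 756 CPM of markers, and highest in WT 3, at 5620 CPM.

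The effect of KI in liver was set against that in the other tissues for members with a mean of at least 10 counts there. None of 5 differed from brain, where 2.81% of all genes did, and none of 7 from skin, where 0.0997% did. None had an unadjusted p under 0.05 in edgeR, the only tool run for this contrast. The differences ran from -1.001 to -0.07 against brain (lowest adjusted p = 0.424) and from -1.02 to 0.07 against skin (adjusted p = 1). The lowest value against brain, that of Ppargc1a, had an SE of 0.855, so effects of this size could not be resolved with these mice. Among the other pathway genes edgeR called 0 of 125 in brain and 0 of 126 in skin, against 0% and 0.0247% of all genes. At an unadjusted p under 0.05 there were 13 and 4, against 10.6% and 4.57% of all genes. DESeq2 called 2 lower in brain, where 3.72% of all genes were lower, and 1 higher in skin, where 0.634% were higher.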

How the data were processed

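Total RNA of P0 brain, liver and skin was sequenced as paired-end libraries with an unstranded kit. According to the labels and the methods, the authors aligned the reads to mm9 with TopHat2, and the submitters' notes name HTSeq and DESeq without versions. The counting annotation is not given in the sources used here. The authors deposited whole-number read counts per gene symbol, with summary lines that were left out here. Reads of near-identical copies and overlapping genes may be lost or shared.

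KI and WT mice, WT tissues and the difference of the KI effect between tissues were compared with edgeR 4.0.16 in R 4.3.3 (filterByExpr, TMM, glmQLFit and glmQLFTest), with Benjamini-Hochberg adjustment over all genes tested and calls at an adjusted p under 0.1. DESeq2 1.42.0 was the second tool. Log2 CPM used a prior count of 2. Exon lengths came from GENCODE vM1 on NCBIM37, where all 9 symbols matched. Tissues that carry 1 genotype and 1 number were treated as coming from 1 animal, which the labels do not state outright. Deviations of a WT liver and of the same-numbered brain or skin correlated at 0.0231 to 0.1634. Nothing says that the mice are of separate litters, so p-values measure the spread between these samples.

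The 9 genes and all lists were chosen with earlier results of these data known. Named in the text were all members, up to 4 called liver genes per list (or the most abundant gene where none was called) and the gene most like each member, and some genes that this rule names are not reported here. Promoters came from RefSeq. Scripts were tested on simulated counts, where DESeq2 made more false calls than edgeR in every comparison run with both tools. Figures used Python 3.11.15 with matplotlib 3.10.9. Alternatives were size factors, filter, all libraries in 1 fit, replicate block, DESeq2, threshold, Y-linked or erythroid covariates, prior count and each mouse left out.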

Additional observations from a re-analysis of the deposited data

Results flagged for a closer look

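In 22 groups of 5 WT libraries, the highest or lowest value was compared with the rest by the ratio of its gap to the whole range. The rule set 7 groups apart, several of them through the liver of WT 4. Its cutoff assumes separate groups of normally distributed values, while these groups share mice and were compared in CPM, not log2 CPM. How many would be set apart by chance is therefore not known. In liver, WT 4 stood apart in Tat (1029 CPM, others 113 to 306), Ppargc1a (152.9 CPM, others 19.4 to 33.7), Pdk4 (380.7 CPM, others 60.7 to 128) and Cpt1a (529.8 CPM, others 332 to 389). Also in liver, WT 1 was low in Acadm (279.4 CPM, others 336 to 349). In skin, WT 3 was high in Ppargc1a (9.396 CPM, others 5.15 to 6.24). Its brown adipocyte markers summed to 468.6 CPM against 39.3 to 78.2 CPM in the other skins. Over the 7 skins, Ppargc1a and this sum had a rho of -0.214. In brain, WT 5 was low in Cpt1a (17.38 CPM, others 31.4 to 35.4).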

How the results depend on the processing

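The comparison of KI with WT livers depended on the settings more than the comparison of tissues did. With all 21 libraries in 1 edgeR fit, 156 genes were called higher and 86 lower in liver, 1 of the listed pathway genes was called lower, and this was 1 of the storage list and 0 of the PPARα list. DESeq2 called 641 genes lower, 1 member (Bdh1), and 30 pathway genes lower, of which 7 were in the PPARα list. At an adjusted p under 0.05, 302 genes were higher and 81 lower, with 8 pathway genes lower (2 PPARα, 4 storage). With a Y-linked covariate there were 298 and 113, with 9 pathway genes lower (2 PPARα), and the log2 fold changes of G6pc (0.12) and Tat (0.28) turned positive. With an erythroid covariate there were 133 and 148, 7 pathway genes lower (3 storage), and Pck1 turned to -0.97. All settings applied to the pathway lists were chosen after seeing the data. The named pathway genes kept their direction in every setting run.

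KI and WT mice share the numbers 1 and 2. Deviations of same-numbered KI and WT libraries correlated at -0.0269 and -0.0932 in liver, 0.0217 and -0.0952 in brain and 0.1985 and 0.0363 in skin. Libraries of different tissues taken as 1 WT animal correlated at only 0.0231 to 0.1634, so these values cannot show whether the numbers pair mice. With the replicate block, Fbp1 (0.0038), Tat (0.36), Ppargc1a (0.47) and Cpt1a (0.0477) turned positive in liver and 1 pathway gene was called higher. In brain the block gave 783 genes higher and 1382 lower, 1 member (Acadm, adjusted p = 0.095 from edgeR) and 0.0522 for Bdh1. In skin it gave 0 genes higher and 0.0054 for Acadm, and Pck1 moved to 0.31 in the liver-minus-skin difference. In the comparison of WT tissues the block changed no call of a member.

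In brain, 1 fit of all 21 libraries gave 173 higher and 441 lower, 0.0629 for Bdh1 and 0.0445 for Pdk4, DESeq2 gave 80 and 524, and the Y-linked covariate gave 0.17 for Pdk4. In skin, 1 fit of all libraries gave 22 higher and 1 lower, DESeq2 96 and 11, an adjusted p under 0.05 gave 0 higher, and the Y-linked covariate gave 1 higher and turned Pck1 (-0.12), Ppargc1a (-0.0217) and Pdk4 (-0.0234).

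Leaving out 1 mouse at a time, the liver calls ran from 49 (without KI 2) to 784 higher and from 7 (without KI 2) to 506 lower (without WT 4), the members called from 0 to 1 (Bdh1, without WT 4), and the pathway genes from 0 to 1 higher and from 1 to 25 lower, with 0 to 4 in the PPARα list and 1 to 11 in the storage list. Liver fold changes on the log2 scale ran from -0.10 to 1.02 for Pck1, -0.85 to 0.16 for G6pc, -0.24 to 0.0424 for Fbp1, -0.35 to 0.80 for Tat, -1.25 to 0.25 for Ppargc1a and -0.21 to 0.0238 for Cpt1a. In brain the calls ran from 0 to 672 higher and 0 to 1026 lower, both highest without WT 5, and the fold changes from -0.0124 to 0.26 for Ppargc1a, -0.0412 to 0.0647 for Bdh1 and -0.18 to 0.23 for Pdk4. In skin 0 to 1 genes were higher, and the fold changes ran from -0.46 to 0.95 for Pck1, -0.55 to 0.48 for Fbp1, -0.29 to 0.28 for Ppargc1a, -1.95 to 0.30 for Bdh1, -0.22 to 0.62 for Pdk4 and -0.53 to 0.43 for Acadm. Ppargc1a in WT liver over WT brain ran from -0.59 (without WT 4) to 0.70. The liver-minus-brain difference of the KI effect ran from -1.33 to 0.0215 for Ppargc1a and -0.25 to 0.0699 for Acadm, and the liver-minus-skin difference from -1.12 to 1.14 for Pck1, -0.50 to 0.31 for Fbp1, -1.18 to 0.24 for Ppargc1a, -0.72 to 1.66 for Bdh1 and -0.86 to 0.40 for Acadm.

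Where a single KI mouse remained, its spread was taken from the WT mice. With 2 KI mice and a WT spread of 18.4-fold for Pck1, a moderate effect of KI on the variable members could not be resolved. Members below 20 counts in brain and skin gave no usable comparison. The causes of these changes were not tested.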
